A study of Saccharomyces cerevisiae with 12 samples.

Results

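Translation factors are the soluble proteins that start, extend and end protein synthesis on the cytosolic ribosome. The 43 yeast genes described here code for the initiation factors (eIF), elongation factors (eEF) and release factors (eRF) of the cytosol, together with the poly(A)-binding protein PAB1, the helicase DED1, the recycling factor RLI1, the ribosome-bound protein STM1 and the proteins that bind eIF4E. They were picked by gene name and role out of the 6612 features in the files. The estimated counts of 4 pairs of paralogs (TEF1/TEF2, EFT1/EFT2, TIF1/TIF2 and HYP2/ANB1) were added together before the strains were compared, which left 39 units.

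DUS KO is a budding yeast strain labelled as lacking the genes of all its dihydrouridine synthases (dus1Δ dus2Δ dus3Δ dus4Δ). It came from a cross of double-deletion strains followed by sporulation and tetrad dissection. WT is the strain BY4741. Both were grown to mid-log phase, and RNA-seq libraries were made from poly(A)-selected RNA of 3 replicates of DUS KO and 3 of WT, as companions to the D-seq libraries that map dihydrouridine, which were not analysed here. No source states that replicates were separate cultures, so the p-values measure only the spread between these libraries. Bulk RNA gives relative levels, so that less of an mRNA and more of all other mRNAs cannot be told apart.

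In initiation, eIF2 carries the initiator tRNA to the small subunit, eIF2B reloads eIF2 with GTP, eIF4 factors bind the cap and unwind the leader, and eIF3, eIF1 and eIF1A hold the complex while it scans for a start codon. In elongation, eEF1A brings each aminoacyl-tRNA to the ribosome, eEF2 moves the tRNAs on, and eEF3, which is a fungal factor, helps to release the spent tRNA. Dihydrouridine is a reduced form of uridine that is found mostly in tRNA, where the Dus enzymes make it.

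Several of these genes are hard to tell apart by their reads, and the letters show how hard. The coding sequences of TEF1 (YPR080W, chromosome XVI, 700594 to 701970, plus strand) and TEF2 (YBR118W, chromosome II, 477671 to 479047, plus strand), which give the same protein, eEF1A, differed at only 2 of 1377 nucleotides. Both differences are printed here from the RefSeq R64 genome, 5′ to 3′, with the differing base in capitals and positions counted from 1 at the A of the start codon. They are T762C and T834C, with the base of TEF1 first.
TEF1 at 762: gatgtttacaagatTggtggtattggtac
TEF2 at 762: gatgtttacaagatCggtggtattggtac
TEF1 at 834: atggttgttactttTgccccagctggtgt
TEF2 at 834: atggttgttactttCgccccagctggtgt
EFT1 (YOR133W) and EFT2 (YDR385W), the genes of eEF2, differed at 4 of 2529 nucleotides. TIF1 (YKR059W) and TIF2 (YJL138C), the genes of the helicase eIF4A, differed at 6 of 1188 nucleotides. HYP2 and ANB1, the genes of eIF5A, were less alike, with 43 differences in 474 nucleotides and a longest identical run of 43 nucleotides. No stretch of 60 nucleotides was shared by the coding sequences of HYP2 and ANB1, whereas 90.9% of such stretches of TEF1 also occurred in TEF2.

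Some of these mRNAs are also in the list of dihydrouridine sites that accompanies the study. These sites are shown because they tie the factors to the modification that DUS KO lacks. Each window is the RefSeq R64 sequence of the mRNA strand, 5′ to 3′, with a capital T at the base 1 nucleotide 5′ of the listed position. This shift was made here, because reverse transcription stops 1 nucleotide 3′ of reduced dihydrouridine. The shifted base was T at 129 of 129 listed sites on chromosomes that could be matched by name, and the base at the listed position itself was T at 23. Any listed site without such a match was left out. The 29-nucleotide windows lie at chrII:477741-477769 (TEF2, plus strand), chrXVI:701407-701435 (TEF1, plus), chrXII:441046-441074 and chrXII:440972-441000 (STM1, plus), chrXV:60610-60638 (CDC33, minus), chrIV:886903-886931 (GCD6, plus), chrV:206882-206910 (GCD11, plus) and chrX:153325-153353 (TIF2, minus).
TEF2, coding nucleotide 85: ccggtcatttgattTacaagtgtggtggt
TEF1, coding nucleotide 828: ccaggtatggttgtTacttttgccccagc
STM1, coding nucleotide 594: aagaacgtcaaatcTaagcaattgaagac
STM1, coding nucleotide 520: ctaagaaggttgaaTtagacgctgaaaga
CDC33, coding nucleotide 401: atggctaagaacttTactagcagttattg
GCD6, 52 nucleotides after the stop codon: taaaaaggctttaaTatgagaaaaaggtg
GCD11, 62 nucleotides after the stop codon: aaagaaagtgaagaTaagaaacgggctag
TIF2, 165 nucleotides after the stop codon: aatatgtacaataaTtaaataattttctg
The TEF2 window also occurs letter for letter in the TEF1 coding sequence, so the letters alone cannot place that site on one of the genes. The TEF1 window spans the T834C difference and does not occur in TEF2.

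Estimated counts summed to 5500084, 2856581 and 656162 in the 3 DUS KO libraries and to 4759874, 5652837 and 4336794 in the 3 WT libraries, so that DUS KO replicate 3 was the shallowest. DUS1 and DUS4 had 0 counts in every DUS KO library and DUS2 had 0, 0 and 3, against 50 to 214 for these genes in WT. DUS3 was not at 0 and overlapped between the strains, at 10.8, 16.8 and 8.91 in DUS KO, against 29.5, 16.5 and 25.1 in WT, as estimated counts relative to a library total scaled by TMM (trimmed mean of M values, a correction for unequal RNA composition), a unit written CPM. The deletion of DUS1, DUS2 and DUS4 was thus seen in these files, and that of DUS3 was not. Unlike those of DUS1, DUS2 and DUS4, the estimated counts of DUS3 in DUS KO were not whole, at 64.1, 52.2 and 6.49. Such counts arise when reads are divided between features, and which feature shared them was not examined. The study reports a check of the genotype by PCR. Over 3476 features the log2 levels of the libraries correlated at 0.926 to 0.980, and the quasi-likelihood test of edgeR, adjusted by Benjamini and Hochberg's method, called 6 of 5880 features at an adjusted p under 0.05. This test works on estimated counts, and the levels below are given as CPM.

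The factors made up a similar slice of the mRNA in the strains. They held 1.93%, 1.95% and 1.92% of all estimated counts in the DUS KO libraries (95% Wilson intervals 1.92 to 1.94, 1.93 to 1.96 and 1.88 to 1.95), against 2.04%, 2.0% and 2.35% in the WT libraries (2.03 to 2.06, 1.99 to 2.01 and 2.34 to 2.37). The intervals cover counting error only. All DUS KO shares lay below all WT shares, with WT replicate 3 apart from the other WT libraries. Most of the slice was elongation factors, at 1.37%, 1.40% and 1.36% of counts in DUS KO, against 1.47%, 1.43% and 1.72% in WT. Per unit length, as TPM, the sums were 6131, 5113 and 5837 in DUS KO, against 5679, 5645 and 5830 in WT, and these overlapped.

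Levels per unit length spanned a wide range within the set, in the same broad order in both strains. eEF1A was the most abundant at 1859 ± 131 TPM in DUS KO and 1799 ± 138 TPM in WT (SD, n = 3 each). Next came its exchange factor EFB1 (YAL003W), at 960 ± 116 TPM in DUS KO and 950 ± 67.0 TPM in WT, and SUI1 (eIF1), at 647 ± 111 TPM in DUS KO and 583 ± 171 TPM in WT. In none of these units did the strain means differ by as much as the SD of DUS KO. The scanning and exchange complexes were far less abundant. The 6 eIF3 units averaged 2.84 to 51.6 TPM in DUS KO, against 3.78 to 56.7 TPM in WT. The 5 eIF2B subunits averaged 5.61 to 20.9 TPM in DUS KO, against 3.76 to 18.3 TPM in WT. At the bottom lay EAP1, a 4E-binding protein, with 0.70 TPM in DUS KO and 0.991 TPM in WT, and HEF3, a little-used copy of eEF3, with 0.596 TPM in DUS KO and 0.254 TPM in WT.

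All 39 units passed the filter on low counts. Of these, 33 had a negative and 6 a positive log2 fold change of DUS KO over WT, with a median of -0.23 beside -0.02 for all features tested. One unit, HYP2/ANB1, passed the adjusted threshold in edgeR's test, where 0.102% of all features did. At an unadjusted p under 0.05, 11 units were lower in DUS KO, which is 28.2% of them beside 4.95% of all features, and none was higher, beside 3.33% of all features. In 14 units (35.9%) every DUS KO library lay below every WT library, beside 7.72% of all features, and in no unit did every DUS KO library lie above every WT library, beside 7.82%. Both shares for the units were thus well above the background in the lower direction and below it in the higher direction. They only describe the list, since its members were chosen with earlier results of these data known. Genes of high level leaned the same way as a whole. Among the 769 features at 100 CPM or more, 18.7% had every DUS KO library below every WT library, and their median was -0.14, whereas the 21 units at that level had 10 such cases and a median of -0.26. At an unadjusted p under 0.05, 16.9% of these features and 8 of these units were lower in DUS KO.

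**Figure D1:**
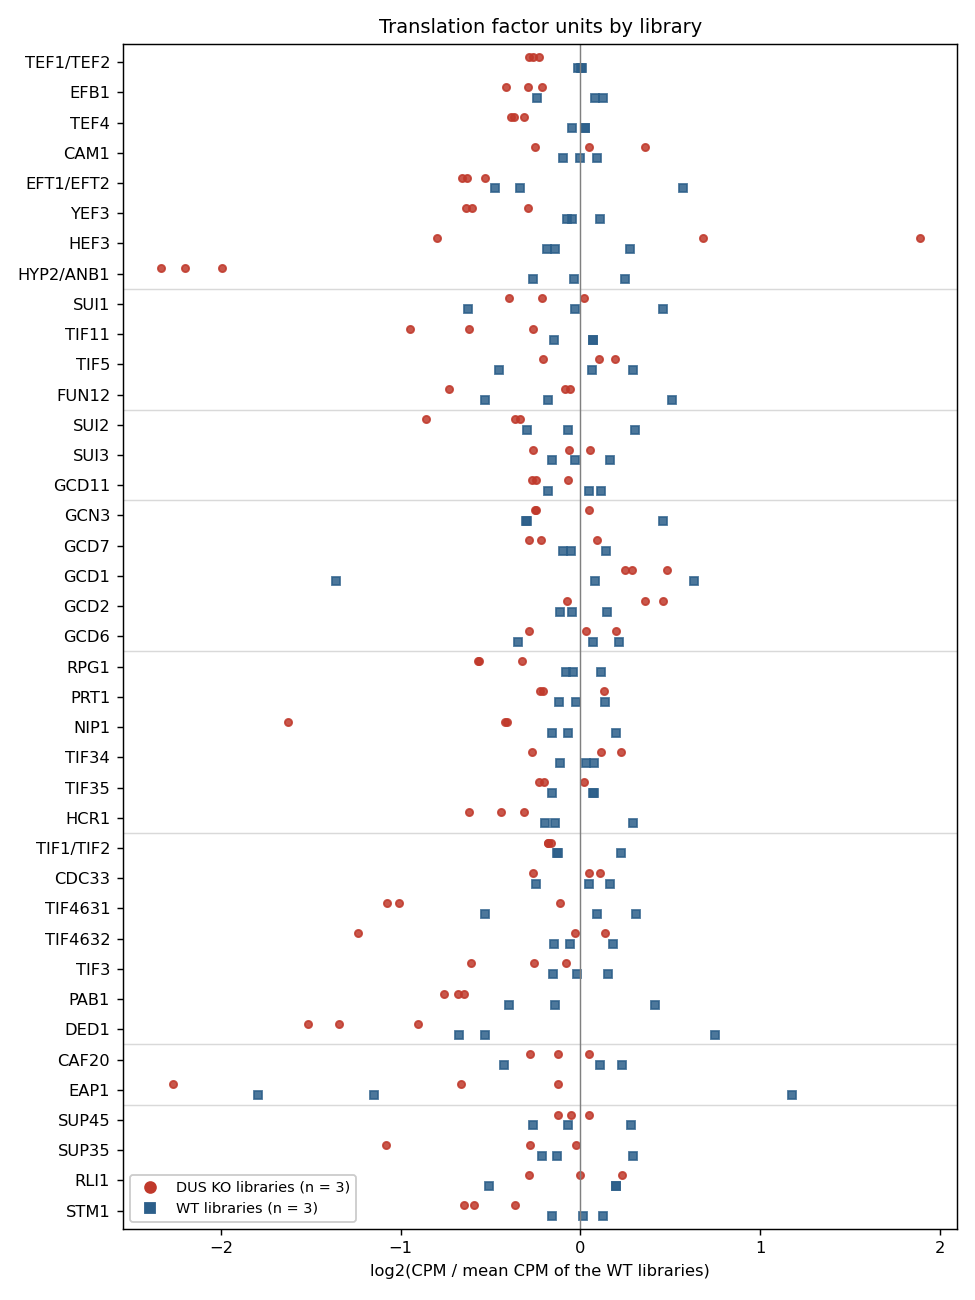
Level of each of the 39 translation factor units in each library, as log2 of its CPM over the mean CPM of the WT libraries (horizontal axis), with units down the page grouped by role. Red circles are the 3 DUS KO libraries and blue squares the 3 WT libraries. In 14 units all circles lie left of all squares, and HYP2/ANB1 lies farthest left as a group.

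The size of this lean depended on the scaling. With scaling by total counts alone the median of all features moved to 0.16 and that of the units to -0.07. Then 5 units (TEF4, HYP2/ANB1, RPG1, PAB1 and STM1) had every DUS KO library below every WT library, beside 3.81% of all features, and 3 were lower at an unadjusted p under 0.05, beside 1.79%. On the log2(TPM + 1) scale the medians were 0.07 for the 37 units kept and 0.24 for all features, and HYP2/ANB1 and STM1 alone had every DUS KO library below every WT library, beside 2.03% of all features. Relative to the median of all features, the units' median was lower under each, with a difference of -0.21 under TMM, -0.24 under total counts and -0.16 on the TPM scale. Among features and units at 100 CPM or more the difference was smaller, at -0.12 under TMM. The direction of a unit with a small log2 fold change is therefore a statement relative to other mRNAs.

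Among the elongation factors the widest gap was in eIF5A, the factor that carries the hypusine residue and helps ribosomes past stretches such as runs of proline. HYP2 and ANB1 together gave 77.4, 85.1 and 98.0 CPM in DUS KO, against 326, 382 and 464 CPM in WT. The groups did not come near each other. The log2 fold change was -2.19 (SE 0.20, adjusted p = 0.000427, edgeR's quasi-likelihood test, adjusted over all features), and the pair was the only unit that fell by this test.

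Most of the gap was in HYP2 (YEL034W, chromosome V, 85676 to 86149, plus strand), the copy expressed in air. ANB1 (YJR047C, chromosome X, 524908 to 525381, minus strand) is the copy known to be expressed when oxygen is low. HYP2 had estimated counts of 0, 0.00416 and 9.57 in DUS KO, against 838, 1352 and 1785 in WT. ANB1 had 460, 264 and 56.1 in DUS KO, against 584, 539 and 284 in WT, with a log2 fold change of -0.32 (SE 0.26, adjusted p = 0.805, edgeR's quasi-likelihood test). Neither set of estimated counts was whole, which shows that reads had been divided between features. Another feature, YEL034C-A, made the sum of the 3 whole, within 0.03, in every library. Its own estimated counts were 3991, 2140 and 501 in DUS KO, against 1944, 1653 and 3184 in WT. As TPM it was at 406, 356 and 402 in DUS KO, against 197, 139 and 345 in WT, without overlap. Fitted as a single feature, its log2 fold change was 0.49 (SE 0.24, adjusted p = 0.627, edgeR's quasi-likelihood test).

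YEL034C-A is not in the RefSeq annotation, but an open reading frame of its 603-nucleotide length lies on the minus strand at 85613 to 86215 of chromosome V, and it covers 100% of HYP2. Every one of the 415 stretches of 60 nucleotides in HYP2 therefore also occurs in it, in reverse complement. It took 89.7%, 89.0% and 88.4% of the summed counts of the 3 features in DUS KO, against 57.8%, 46.6% and 60.6% in WT. With YEL034C-A included, the eIF5A sum was 749, 775 and 842 CPM in DUS KO, against 771, 715 and 1178 CPM in WT. These groups overlapped, and the log2 fold change was -0.17 (SE 0.20, adjusted p = 0.883, edgeR's quasi-likelihood test). The call was thus lost once the 3 features that share reads were added together. The study describes its sequencing as strand-specific, but how strand was treated in the estimated counts is not stated.

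**Figure D2:**
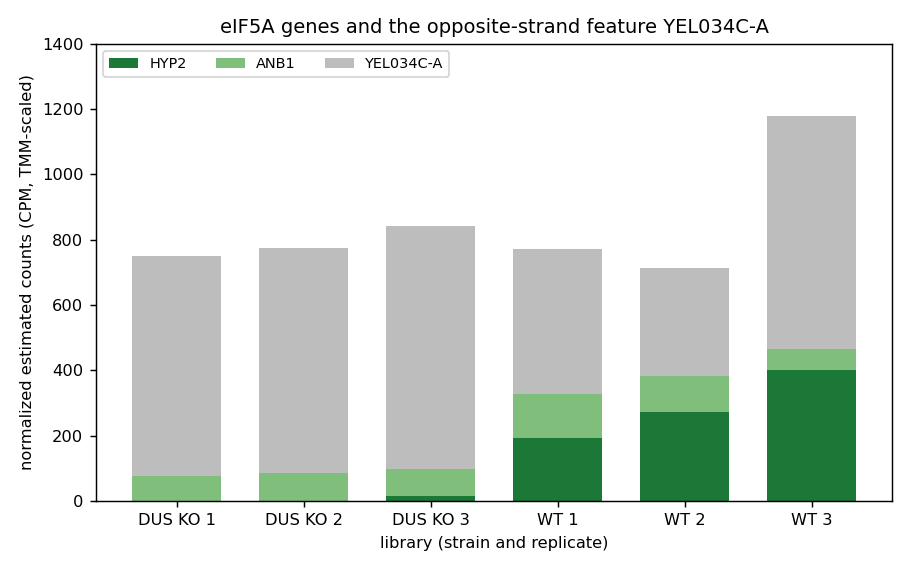
Normalized estimated counts (CPM, TMM-scaled, vertical axis) of HYP2, ANB1 and the opposite-strand feature YEL034C-A, stacked, in the 3 DUS KO libraries (left) and the 3 WT libraries (right). The dark HYP2 segment is seen in all WT libraries and is at most a sliver in DUS KO, while the stacked totals of 749 to 842 CPM in DUS KO overlap those of 715 to 1178 CPM in WT.

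eEF1A itself showed small, tight groups. TEF1 and TEF2 together gave 7981, 8105 and 8324 CPM in DUS KO, against 9658, 9796 and 9776 CPM in WT. The DUS KO libraries all lay below the WT libraries, but the log2 fold change of -0.26 (SE 0.15) did not pass the test (adjusted p = 0.685, edgeR's quasi-likelihood test), and on the TPM scale it was 0.05. Its exchange factor EFB1 overlapped between strains, at 1788 ± 123 CPM in DUS KO and 2209 ± 295 CPM in WT (SD, n = 3 each), with a log2 fold change of -0.31. TEF4 (YKL081W), which codes for the gamma subunit of the exchange complex, gave 685, 695 and 722 CPM in DUS KO, against 911, 911 and 867 CPM in WT. Again no DUS KO library reached the lowest WT library (log2 fold change -0.36, SE 0.16, adjusted p = 0.581, edgeR). CAM1 (YPL048W), another gamma subunit gene, went the other way in its estimate, at 163 ± 34.5 CPM in DUS KO and 155 ± 10.1 CPM in WT (log2 fold change 0.06). The ratio of TEF4 to CAM1 in TPM was 4.32, 5.38 and 3.65 in DUS KO, against 5.94, 5.56 and 6.03 in WT, with no overlap. It was 1 of 11 ratios between members that were computed, and the strains overlapped in the other 10.

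eEF2 and eEF3 did not overlap between the strains either. EFT1 and EFT2 gave 640, 630 and 686 CPM in DUS KO, against 786, 713 and 1477 CPM in WT. WT replicate 3 stood far above the other WT libraries and set the size of the gap. The log2 fold change was -0.61 (SE 0.25, adjusted p = 0.541, edgeR's quasi-likelihood test) and -0.21 without that library. YEF3 (YLR249W), the eEF3 gene, gave 1297, 1611 and 1268 CPM in DUS KO, against 1869, 1911 and 2128 CPM in WT. Its log2 fold change was -0.50 (SE 0.17, adjusted p = 0.448, edgeR's quasi-likelihood test), and -0.44 without WT replicate 3. HEF3 had only 10.7, 15.6 and 8 estimated counts in DUS KO, against 17, 14 and 13 in WT, too few for its log2 fold change of 0.82 (SE 0.99) to be told from 0.

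Reads within the near-identical pairs were divided unevenly from library to library. The rule that chose the members had set beforehand that the pairs be summed, and single features were fitted only as an alternative. TEF1 took 48.6%, 44.4% and 38.2% of the eEF1A counts in DUS KO, against 44.2%, 30.2% and 34.5% in WT. EFT1 took 61.2%, 66.7% and 88.2% of the eEF2 counts in DUS KO, against 68.6%, 53.4% and 40.7% in WT. TIF1 took 62.9%, 80.0% and 69.1% of the eIF4A counts in DUS KO, against 51.8%, 61.2% and 64.0% in WT. The strains overlapped in each of the 3 pairs. After summing, 35 of the 39 units had whole counts in every library, and the other 4 (HYP2/ANB1, CAF20, SUI3 and HEF3) each became whole with 1 feature that overlaps them on the opposite strand.

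**Figure D3:**
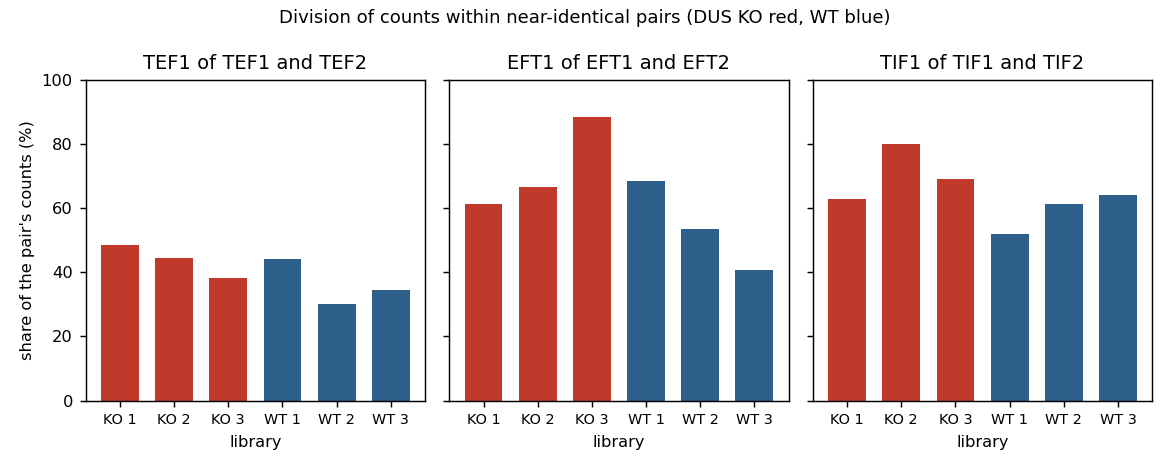
Share of the summed estimated counts given to the first gene of each near-identical pair (vertical axis, percent, from 0), by library, with DUS KO in red on the left and WT in blue on the right. Shares range from 38.2% to 88.2% in DUS KO and from 30.2% to 68.6% in WT, and the strains overlap in each panel.

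Among the factors that select the start codon and join the subunits, TIF11 (YMR260C, eIF1A) had the lowest log2 fold change. It gave 172, 220 and 137 CPM in DUS KO, against 276, 238 and 276 CPM in WT. All DUS KO libraries were below WT (log2 fold change -0.57, SE 0.20, adjusted p = 0.476, edgeR's quasi-likelihood test). Its partner SUI1 (eIF1) overlapped widely, with a log2 fold change of -0.19, as did TIF5 (eIF5, which triggers GTP hydrolysis by eIF2) with 0.03 and FUN12 (eIF5B, which joins the subunits) with -0.23.

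The 3 subunits of eIF2 had log2 fold changes of -0.47 (SUI2, YJR007W, alpha), -0.09 (SUI3, YPL237W, beta) and -0.18 (GCD11, YER025W, gamma). SUI2, whose product is the target of the kinase Gcn2, gave 51.3, 50.3 and 35.6 CPM in DUS KO, against 61.6, 52.7 and 79.8 CPM in WT. Its groups were separate by a narrow margin (SE 0.26, adjusted p = 0.669, edgeR's quasi-likelihood test). GCD11 gave 77.2, 67.3 and 68.3 CPM in DUS KO, against 71.5, 87.6 and 83.9 CPM in WT, and overlapped (SE 0.21, adjusted p = 0.874, edgeR's quasi-likelihood test). The 5 subunits of eIF2B, the exchange factor of eIF2, showed no common direction. GCN3 (alpha) was at -0.13, GCD7 (beta) at -0.12, GCD1 (gamma) at 0.36, GCD2 (delta) at 0.25 and GCD6 (YDR211W, epsilon, the catalytic subunit) at -0.03 in log2 fold change, with a median of -0.03 and none separated between strains. GCD6 gave 39.4, 49.0 and 54.9 CPM in DUS KO, against 50.4, 37.7 and 55.6 CPM in WT (SE 0.26, adjusted p = 0.990, edgeR's quasi-likelihood test).

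In eIF3, the scaffold of the initiation complex, 3 of the 6 units (RPG1, NIP1 and HCR1) had all of their DUS KO libraries below WT under TMM scaling. This compares with 7.72% of all features. With total-count scaling RPG1 alone stayed separate, beside 3.81% of all features, and on the TPM scale no eIF3 unit did. RPG1 (YBR079C, eIF3a) gave 53.9, 54.1 and 63.8 CPM in DUS KO, against 77.6, 75.5 and 86.6 CPM in WT, a log2 fold change of -0.50 (SE 0.22, adjusted p = 0.575, edgeR's quasi-likelihood test). NIP1 (YMR309C, eIF3c) gave 27.4, 27.7 and 11.9 CPM in DUS KO, against 35.0, 32.9 and 42.2 CPM in WT, a log2 fold change of -0.63 (SE 0.33, adjusted p = 0.649, edgeR's quasi-likelihood test). The lowest NIP1 value was that of the shallowest library, where it rested on 8 counts. HCR1 (YLR192C, eIF3j), which binds loosely to the complex, was at 127 ± 13.4 CPM in DUS KO and 174 ± 33.7 CPM in WT (log2 fold change -0.45). The remaining subunits PRT1 (eIF3b), TIF35 (eIF3g) and TIF34 (eIF3i) overlapped, with log2 fold changes of -0.08, -0.14 and 0.03. Neighbouring subunits of the same complex thus differed in their estimates, but no difference between subunits was tested.

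The cap-binding and scanning factors all had negative log2 fold changes under TMM scaling, with a median of -0.29 over 7 units. With total-count scaling CDC33 was at 0.16 and the rest stayed negative. On the log2(TPM + 1) scale CDC33 was at 0.28, TIF1/TIF2 at 0.14 and TIF4632 at 0.002, and the rest were negative. DED1 (YOR204W), a helicase that opens structured leaders, was at 60.6, 39.6 and 44.5 CPM in DUS KO, against 70.8, 78.3 and 190 CPM in WT. No DUS KO library reached the WT range, and WT replicate 3 stood far above the other WT libraries. The log2 fold change was -1.21 (SE 0.36, adjusted p = 0.349, edgeR's quasi-likelihood test) with it and -0.61 (adjusted p = 0.379) without it. PAB1 (YER165W), which binds the poly(A) tail and eIF4G, was at 122, 125 and 116 CPM in DUS KO, against 149, 178 and 261 CPM in WT. DUS KO was tight and WT spread out, with WT replicate 3 again on top, and the log2 fold change was -0.69 (SE 0.22, adjusted p = 0.389, edgeR's quasi-likelihood test) with it and -0.43 without it.

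TIF4631 (YGR162W), the main eIF4G gene, gave 28.9, 30.3 and 56.4 CPM in DUS KO, against 42.1, 75.7 and 65.0 CPM in WT. DUS KO replicate 3 lay inside the WT range (log2 fold change -0.74, SE 0.32, adjusted p = 0.575, edgeR's quasi-likelihood test). The second eIF4G gene, TIF4632, was at -0.28 (SE 0.45) with 10 to 99 counts in DUS KO and 65 to 75 in WT. TIF1 and TIF2 (eIF4A) gave 834, 823 and 824 CPM in DUS KO, against 856, 853 and 1092 CPM in WT. The DUS KO libraries differed by little among themselves and lay just below WT replicates 1 and 2, so that the log2 fold change was -0.17 (SE 0.17, adjusted p = 0.85, edgeR's quasi-likelihood test) and -0.05 without WT replicate 3. CDC33 (YOL139C), which codes for the cap-binding protein eIF4E, gave 492, 396 and 514 CPM in DUS KO, against 535, 493 and 401 CPM in WT, and overlapped (log2 fold change -0.03, SE 0.19, adjusted p = 0.983, edgeR's quasi-likelihood test). TIF3 (eIF4B), which aids the helicase, was at -0.29 (SE 0.19).

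CAF20 (YOR276W) competes with eIF4G for eIF4E and had a log2 fold change of -0.12 (SE 0.20). It shared reads with YOR277C, which has an open reading frame on the opposite strand over 62.6% of CAF20. YOR277C had 361, 175 and 13.2 estimated counts in DUS KO, against 666, 634 and 702 in WT. Fitted as a single feature, its log2 fold change was -1.59 (SE 0.30, adjusted p = 0.134, edgeR's quasi-likelihood test). The CAF20 and YOR277C sum was 509, 459 and 524 CPM in DUS KO, against 680, 702 and 521 CPM in WT, with a log2 fold change of -0.35 (SE 0.18, adjusted p = 0.634, edgeR's quasi-likelihood test). DUS KO replicate 3 just overlapped WT replicate 3. Adding the opposite-strand partner moved SUI3 to -0.12 and HEF3 to 0.83 in log2 fold change. EAP1, the other 4E-binding protein, had 39, 14 and 1 counts in DUS KO, against 9, 16 and 72 in WT, and its estimate of -0.63 (SE 0.88) rested on single libraries.

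In termination and recycling, SUP45 (eRF1, which reads stop codons) was at -0.04, SUP35 (eRF3, its GTPase) at -0.34 and RLI1 (the ATPase that splits the subunits) at -0.03 in log2 fold change, and all overlapped. STM1 (YLR150W), which binds ribosomes and protects them in resting cells, differed more. It gave 785, 816 and 956 CPM in DUS KO, against 1243, 1342 and 1101 CPM in WT. Every DUS KO library was below every WT library under TMM, total-count and TPM scaling alike. The log2 fold change was -0.53 (SE 0.17) and did not pass the adjusted threshold (adjusted p = 0.402, edgeR's quasi-likelihood test, with a range of 0.0815 to 0.972 over the alternatives).

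**Figure D4:**
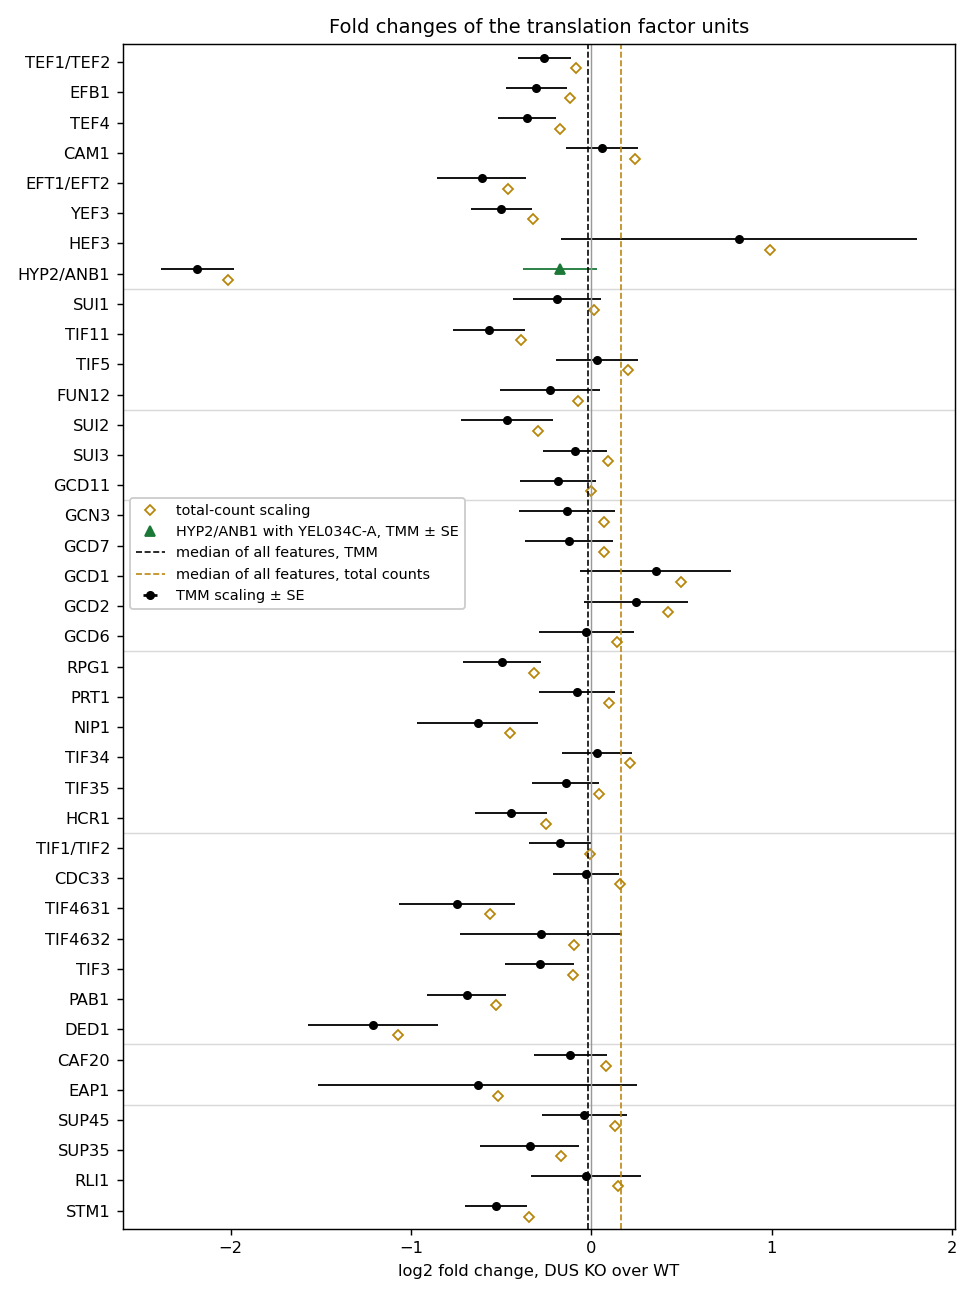
Log2 fold change of DUS KO over WT for each unit (horizontal axis), by role, with TMM scaling (black circles, bars ± SE) and with total-count scaling (open diamonds); dashed lines mark the medians of all features, -0.02 (black) and 0.16 (gold). HYP2/ANB1 lies at -2.19 alone and at -0.17 once YEL034C-A is added (green triangle).

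Units whose mRNA carries a listed dihydrouridine site were set beside the rest. The study calls its number of sites a lower bound, since only a small part of the transcriptome had enough reads to be surveyed. A unit that is not listed may thus carry a site that could not be seen. Under TMM scaling the 6 listed units (eEF1A, eIF4A, CDC33, GCD6, GCD11 and STM1) all had negative log2 fold changes, with a median of -0.18. In 3 of them every DUS KO library lay below every WT library. The other 33 units had a median of -0.28 and 11 such cases, beside 7.72% of all features. Of the listed units only STM1 kept a negative value on the log2(TPM + 1) scale, at -0.22, and the rest ran from 0.047 to 0.28. STM1 was also the only listed unit with separate strains under total-count or TPM scaling. The 6 units include eEF1A, the most abundant one, and no difference between these groups was tested.

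Spread between libraries was alike in the strains. The coefficient of variation of CPM over 3 libraries had a median of 14.1% over the units in DUS KO and 14.7% in WT. WT replicate 3 was the highest of the 6 libraries in 17 of 39 units, WT replicate 2 in 11 and WT replicate 1 in 6, whereas DUS KO replicate 3 was highest in 5 and the other DUS KO libraries in none. Without WT replicate 3, 11 units were lower at an unadjusted p under 0.05, beside 6.93% of all features, and 17 had every DUS KO library below every remaining WT library, beside 15.2% of all features. Without DUS KO replicate 3, 6 units were lower at an unadjusted p under 0.05, beside 3.62% of all features, and 17 had every remaining DUS KO library below every WT library, beside 11.4%.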

How the data were processed

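The 6 RNA-seq libraries were analysed; the 6 D-seq libraries were not used here. For each library the authors deposited a table of features (coding sequences) with an estimated count, which is not normalized, and a TPM value, which is normalized by effective length and library total. The study's methods describe adapter trimming, collapse of duplicates on molecular identifiers and alignment to sacCer3; the libraries are described as strand-specific, but the program behind the estimated counts and its strand setting are not given. Positions and sequences are from RefSeq R64, the assembly also called sacCer3.

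Estimated counts were rounded, the 4 pairs summed, low features removed with filterByExpr (728 of 6608) and libraries scaled by TMM, with factors of 1.08, 1.09 and 1.03 in DUS KO and 0.918, 0.877 and 1.03 in WT. Strains were compared in 5880 features with the robust quasi-likelihood test of edgeR 4.0.16 in R 4.3.3, with strain as the one term and Benjamini-Hochberg adjustment (threshold 0.05). Its biological coefficient of variation came to 37.4%. The test was first tested on simulated data. Sums were called whole within 0.03.

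Values per library are given for units at an unadjusted p under 0.05 (up to 10), units whose strains do not overlap (up to 10 by fold change), the 4 pairs and the units with listed dihydrouridine sites. The members and lists were chosen with earlier results of these data known. Alternatives were other scalings, filters, tools (DESeq2 1.42.0, limma 3.58.1), TPM with a pseudocount of 1 or 0.1, a replicate block, single features, sums with features that share reads, and leaving out each library. The division at 100 CPM was chosen after seeing the data.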

Additional observations from a re-analysis of the deposited data

How the results depend on the processing

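Over all features the test called 6, against 53 with DESeq2, 1 with limma-voom, 1 on log2(TPM + 1), 2 on log2(TPM + 0.1) and 2 (without DUS KO replicate 1) to 13 (without WT replicate 1) when single libraries were left out. The 1 called unit became 0 on both TPM scales, with paralogs not summed and with features that share reads added. For HYP2/ANB1 the log2 fold change was -1.84 and -1.85 on the TPM scales and -0.17 with YEL034C-A, none of which passed. The 11 units lower at an unadjusted p under 0.05 became 3 with total-count scaling (1.79% of all features), 1 on log2(TPM + 1) (0.843%), 1 on log2(TPM + 0.1) (0.806%) and 4 to 11 when single libraries were left out. They were 4 without DUS KO replicate 1 (2.78%), 6 without replicate 2 (3.11%) and 6 without replicate 3 (3.62%). The 14 units with separate strains became 5 with total-count scaling (3.81% of all features), 2 on the TPM scale (2.03%) and 15 to 17 when single libraries were left out (11.4% to 15.2%).

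The median of -0.23 became -0.073 with total-count scaling, -0.17 with limma-voom, 0.071 and 0.082 on log2(TPM + 1) and log2(TPM + 0.1), -0.16 for units under 100 CPM, and -0.26 to -0.20 without single libraries. With total-count scaling GCD6 was at 0.14 and CDC33 at 0.16. On log2(TPM + 1) and log2(TPM + 0.1) TEF1/TEF2 was at 0.047 and 0.047, GCD11 at 0.11 and 0.12, GCD6 at 0.26 and 0.30, TIF1/TIF2 at 0.14 and 0.14, and CDC33 at 0.28 and 0.28. Without single libraries GCD6 ran from -0.18 to 0.11 and CDC33 from -0.14 to 0.077. The cause was not tested. Of 301 values of the 17 units given by library, 281 kept direction and side of the threshold, and of 390 values of the other 22 units 56 had the opposite sign and none was called. HEF3 and EAP1 gave no value on the TPM scales, where they did not reach a mean of 1 TPM.

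With a replicate block 5 features and 1 unit were called, 8 units were lower at an unadjusted p under 0.05 (3.72% of all features), and the median was -0.17. The deviations of same-numbered libraries of the strains correlated at 0.03, -0.04 and -0.07, so no pairing by number was seen. These values cannot show whether same-numbered libraries were prepared together. Depth limits the shallowest library, DUS KO replicate 3, in which NIP1 had 8 counts and EAP1 had 1.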

Other observations

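Other genes that modify, recycle or regulate the translation factors were looked up by symbol, and 36 of 36 were found and tested. None was called at an adjusted p under 0.05 by edgeR's quasi-likelihood test, nor under any of the 18 alternatives, DESeq2 among them. At an unadjusted p under 0.05, 6 were lower in DUS KO, beside 4.95% of all features, and 1 was higher, beside 3.33%. The median log2 fold change was -0.23, 24 were negative and 12 positive. In 7 genes every DUS KO library lay below every WT library, beside 7.72% of all features, and in 1 every DUS KO library lay above, beside 7.82%.

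DPH5, which makes an intermediate of the diphthamide residue on eEF2, gave 35.0, 39.9 and 37.1 CPM in DUS KO, against 67.3, 84.7 and 57.2 CPM in WT. Its log2 fold change was -0.90 (SE 0.25). The strains did not overlap. LIA1, the hydroxylase that completes hypusine on eIF5A, gave 119, 98.9 and 111 CPM in DUS KO, against 176, 125 and 154 CPM in WT, also without overlap and with a log2 fold change of -0.47 (SE 0.20). DYS1, which starts hypusine synthesis, overlapped at -0.16 (SE 0.27).

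TIF6 (eIF6, which keeps the large subunit free), NEW1 (an ABC protein that acts in termination) and GIR2 (which binds Gcn1) were separate between strains, with log2 fold changes of -0.63, -0.80 and -0.74. So were DBP1, a paralog of DED1, at -1.36 (SE 0.93) and SLH1, a ribosome-linked helicase, at -1.15 (SE 0.67), both at low levels of 1.99 and 3.69 CPM on average in DUS KO, against 5.46 and 9.10 CPM in WT. EFM4, a methyltransferase of eEF1A, was at -0.68 and overlapped. EFM1, another methyltransferase of eEF1A, was the one gene higher at an unadjusted p under 0.05 and did not pass the adjusted threshold (adjusted p = 0.384, edgeR's quasi-likelihood test). It gave 44.9, 30.0 and 31.2 CPM in DUS KO, against 11, 8.88 and 23.8 CPM in WT, a log2 fold change of 1.30 (SE 0.41). ASC1, a protein of the small subunit, overlapped at -0.13 (SE 0.19), and so did the eIF2 kinase gene GCN2 at 0.37 (SE 0.56).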
